A study of Mus musculus with 12 samples.

Results

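Scavenger receptors were followed in M2-like polarized bone marrow-derived macrophages (BMDM) through 9 genes, Msr1, Marco, Colec12, Cd36, Scarb1, Olr1, Stab1, Cd163 and Cd5l. They were taken by gene symbol from the 56748 genes of the deposited count table, and all 9 passed the filter on low counts that left 15033 genes for testing. The cells came from the bone marrow of C57BL/6J mice, whose age the sample descriptions do not give, and the experiment had 4 conditions with 3 libraries each, described as biological replicates. All 4 conditions shared differentiation with M-CSF at 20 ng/mL and polarization with IL4 at 10 ng/mL for 48 hours, followed by 72 hours of treatment. The untreated control received plain medium and the rIFNβ condition received recombinant IFNβ. The other conditions received culture medium from YUMM5.2 cells, a mouse melanoma line, collected after 72 hours with Dox at 1 μg/mL. YUMM5.2 Ifnb1eGFP cells carry a lentiviral Dox-responsive promoter in front of Ifnb1 and eGFP, and their medium, here the Ifnb1eGFP supernatant, was brought down to 1500 pg/mL of IFNβ. YUMM5.2 eGFP cells carry eGFP alone, their medium (eGFP supernatant) was diluted in the same ratio, and rIFNβ was set to an equivalent concentration. Remaining Dox and other factors released by the melanoma cells came with both supernatants and cannot be told apart here.

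Scavenger receptors are cell surface proteins of unrelated structure that bind modified lipoproteins, microbial surfaces, apoptotic cells and other polyanionic or lipid ligands and carry them into the cell. Macrophages are their main site in the immune system, where they serve lipid uptake, clearance of debris and haemoglobin, and recognition of bacteria. Class A receptors have collagen-like stalks, class B receptors span the membrane at both ends, and further classes carry a C-type lectin domain, link and EGF-like domains, or scavenger receptor cysteine-rich domains. Cd5l is a secreted protein of cysteine-rich domains that is grouped with the receptors by its structure.

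In macrophages exposed to IFNβ, transcripts of 7 of the 9 genes were lower than in the matched cells without it, whether the IFNβ came in tumor cell supernatant or as recombinant protein. The 7 were Marco, Colec12, Cd36, Scarb1, Olr1, Stab1 and Cd163. Msr1 did not pass the test in either comparison. Cd5l was higher with rIFNβ and did not pass the test with Ifnb1eGFP supernatant. Levels are given as CPM, counts per 1000000 counts of the normalized library. A gene was called when edgeR's quasi-likelihood test gave a Benjamini-Hochberg adjusted p of at most 0.05 over the 15033 genes. By this rule 7 members were lower in Ifnb1eGFP supernatant against eGFP supernatant, where 25% of all genes tested were lower, and 0 were higher, where 30.1% of all genes were. At an unadjusted p under 0.05 there were the same 7, as were 59.7% of all genes, and DESeq2 also called 7, with 8006 of 17978 genes in all. In rIFNβ against untreated control 7 members were lower, against 24.6% of all genes, and 1 was higher, against 30.7%. Under a stricter rule, where the log2 fold change had to reach 2 in size at an adjusted p no higher than 0.01, Marco and Olr1 were lower in both comparisons, where 2.62% and 2.78% of all genes were lower. The median log2 fold change of the 9 genes was −1.32 with Ifnb1eGFP supernatant and −1.28 with rIFNβ, and over all genes tested it was 0.03 and 0.04. These 2 comparisons used separate libraries on both sides. In bulk RNA, fewer cells expressing a gene and less RNA per cell cannot be told apart.

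**Figure D1:**
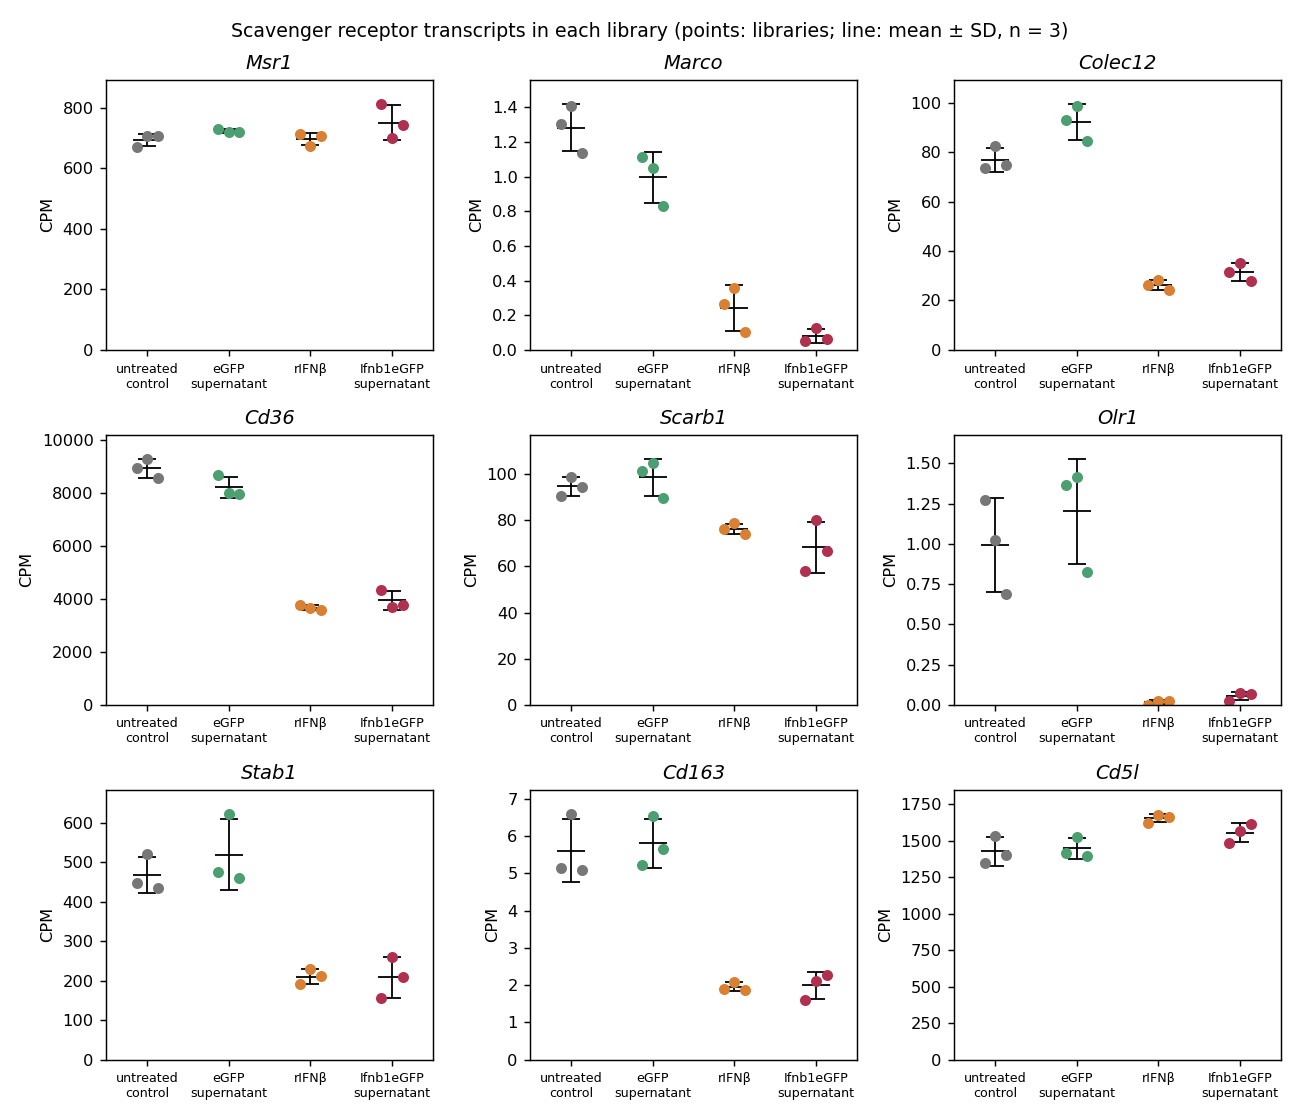
Level of each scavenger receptor in CPM (vertical axis of each panel, from 0) in the 3 libraries of each condition, with horizontal lines for the mean and bars for the SD. For Marco, Colec12, Cd36, Scarb1, Olr1, Stab1 and Cd163, the IFNβ libraries lie wholly below their 3 matched libraries in each IFNβ comparison. The Msr1 panel shows no such gap. Of all genes tested, 26.6% lay wholly lower and 32.4% wholly higher in the 3 Ifnb1eGFP libraries than in the 3 eGFP libraries. For rIFNβ against untreated control these shares were 29.7% and 36.4%.

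Promoter sequences are shown for the 2 genes with the largest falls, Olr1 and Marco, for Cd36, which held most of the receptor counts, and for Cd5l, which was called higher. Each is the 250 bases before the RefSeq transcription start in build GRCm38.p6, read 5′ to 3′ on the strand of the gene. The windows are chr6:129507166-129507415 on the minus strand for Olr1, chr1:120505025-120505274 on the minus strand for Marco, chr5:17835897-17836146 on the minus strand for Cd36 and chr3:87357631-87357880 on the plus strand for Cd5l. Capitals mark matches to the motifs named in the next paragraph. Cd36 has several starts, and the window belongs to the start that RefSeq's table gives.
Olr1: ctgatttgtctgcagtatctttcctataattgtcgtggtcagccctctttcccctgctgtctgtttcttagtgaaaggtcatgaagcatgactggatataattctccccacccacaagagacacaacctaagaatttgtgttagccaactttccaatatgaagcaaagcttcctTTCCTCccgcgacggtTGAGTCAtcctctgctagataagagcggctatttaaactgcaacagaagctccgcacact
Marco: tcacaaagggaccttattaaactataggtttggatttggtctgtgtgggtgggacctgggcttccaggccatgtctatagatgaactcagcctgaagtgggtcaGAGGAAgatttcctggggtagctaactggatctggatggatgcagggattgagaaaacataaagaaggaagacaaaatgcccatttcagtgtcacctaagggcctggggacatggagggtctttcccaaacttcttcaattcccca
Cd36: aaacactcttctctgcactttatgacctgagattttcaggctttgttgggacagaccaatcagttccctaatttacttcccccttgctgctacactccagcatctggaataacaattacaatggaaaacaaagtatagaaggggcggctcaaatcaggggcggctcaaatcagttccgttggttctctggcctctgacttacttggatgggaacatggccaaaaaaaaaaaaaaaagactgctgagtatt
Cd5l: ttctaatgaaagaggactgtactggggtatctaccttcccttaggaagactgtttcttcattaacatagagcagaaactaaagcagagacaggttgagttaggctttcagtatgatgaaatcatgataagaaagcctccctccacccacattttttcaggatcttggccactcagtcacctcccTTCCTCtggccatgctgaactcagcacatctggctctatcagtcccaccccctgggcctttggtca

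Promoters of 6 of the 9 members were searched from RefSeq's table, namely Marco, Cd36, Olr1, Stab1, Cd163 and Cd5l. Members on chromosome 18, where Colec12 lies, were left out of the search. On both strands, 4 motifs were searched. GAGGAA, the core bound by the macrophage lineage factor PU.1, was found in 4 of the 6 promoters and in 23.3% of the 32851 promoters of the same length in the table. It lay 146 to 141 bases before the start in Marco, 30 to 25 bases before it in Stab1 and, on the opposite strand, 76 to 71 bases before it in Olr1 and 66 to 61 bases before it in Cd5l. TGANTCA, bound by AP-1, was found in Olr1 alone among the 6, as TGAGTCA 60 to 54 bases before the start, and in 6.75% of all promoters. GAAANNGAA, a form of the element bound by interferon regulatory factors, was in 0 of the 6 windows and in 7.13% of all promoters. TTCNNNGAA, bound by STAT dimers, was in 0 of the 6 and in 7.02% of all. The 4 motifs do not overlap each other in these windows. A match is a run of letters and not a measured binding site.

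Library totals ran from 31526034 to 45348457 counts. The macrophage markers Csf1r and Adgre1 were present in every condition, with means of 1045 to 1145 CPM for Csf1r and 1496 to 1775 CPM for Adgre1. Of 6 genes known for IL4-driven macrophages, Mrc1 averaged 660.1 to 825 CPM, Retnla 55.2 to 63.4 CPM and Mgl2 3.32 to 4.87 CPM, while Arg1 averaged 0.261 to 0.662 CPM and Ccl17 was at 0 in 3 of the 4 conditions. Chil3, the other gene of the 6, was the only one called in both comparisons of cells with and without IFNβ, and it rose from 74.9 ± 6.54 to 128 ± 1.16 CPM with Ifnb1eGFP against eGFP supernatant (SD, n = 3, log2 fold change 0.77, adjusted p = 1.73e-05) and by 0.67 on the log2 scale with rIFNβ (adjusted p = 5.55e-05). The summed level of 8 interferon-response genes was 49.7 to 86.1 CPM in the untreated control, 54.5 to 581 CPM with eGFP supernatant, 8435 to 9213 CPM with Ifnb1eGFP supernatant and 9012 to 9490 CPM with rIFNβ, and all 8 were called higher in both IFNβ comparisons. The value of 581 CPM was in eGFP replicate 2. Without that library the same number of members, 7, was lower in Ifnb1eGFP against eGFP supernatant. The 8 macrophage markers summed to 14947 to 16189 CPM in control and 18835 to 19417 CPM with eGFP supernatant, against 10063 to 10185 CPM with Ifnb1eGFP supernatant and 9301 to 9418 CPM with rIFNβ. Of these 8, 3 were called lower (Itgam, Lyz2 and Cd14) and 3 higher (Adgre1, Cd68 and Mertk) in each IFNβ comparison. Lyz2, a lysozyme gene, fell from 12396 ± 385 CPM (SD, n = 3) with eGFP supernatant to 4111 ± 208 CPM (SD, n = 3) with Ifnb1eGFP supernatant. Between the same conditions Itgam fell from 1620 ± 7.22 to 409 ± 14.8 CPM (SD, n = 3, log2 fold change −1.99, adjusted p = 1.25e-10). Among markers of other cells, B cell markers reached at most 1.63 CPM, NK cell markers 0.935 CPM, mast cell markers 0.733 CPM and melanoma markers 0.810 CPM. T cell markers ranged from 3.75 to 9.96 CPM, nearly all of it Cd4, the only one of the 6 to pass the filter, which rose from 4.50 ± 0.479 to 9.73 ± 0.198 CPM with Ifnb1eGFP supernatant (SD, n = 3, adjusted p = 2.34e-06). The defining genes Cd3e, Cd3d, Cd3g and Trac held 0 to 2 counts in each condition. Neutrophil markers lay at 4.28 to 5.72 CPM without IFNβ and 0.208 to 0.985 CPM with it. Without IFNβ nearly all of this was S100a8, the only one of the 6 to pass the filter. Ly6g and Mpo held 0 counts in control and with eGFP supernatant. They held 0 and 2 counts over 3 libraries with Ifnb1eGFP supernatant, and 5 and 12 with rIFNβ. Dendritic cell markers lay at 1.54 to 2.03 CPM without IFNβ and 0.348 to 0.697 CPM with it. Osteoclast markers lay at 54.1 to 66.9 CPM and 23.8 to 32.9 CPM, with Calcr at 0. Stromal markers summed to 31.0 to 84.7 CPM. In this list Dcn rose from 8.97 ± 3.65 to 31.2 ± 10.2 CPM with Ifnb1eGFP supernatant (SD, n = 3, adjusted p = 0.00256), Pdgfra and Pecam1 also rose, and Col1a1 fell from 16.8 ± 5.94 to 8.24 ± 1.44 CPM (SD, n = 3, adjusted p = 0.0105). With rIFNβ the same 4 genes were called in the same directions, and Col3a1 was also lower. The part of these markers in the receptor levels was not tested.

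Of the class A receptors, Msr1 was not called with IFNβ, and Marco and Colec12 were called lower. Msr1 (ENSMUSG00000025044, GRCm39 chr8:40034726-40095714, minus strand), the classical class A receptor for acetylated and oxidized lipoproteins, was at 671, 707 and 706 CPM in untreated control and at 730.5, 722 and 719.5 CPM with eGFP supernatant. It was at 812, 699.9 and 743 CPM with Ifnb1eGFP supernatant and at 713, 676 and 706 CPM with rIFNβ. Libraries with and without IFNβ overlapped. Its log2 fold change was 0.05 with Ifnb1eGFP against eGFP supernatant, with a 95% interval from −0.06 to 0.17 and an adjusted p of 0.418. It was 0.01 with rIFNβ against control, with an interval from −0.11 to 0.12 and an adjusted p of 0.921, and its sign turned with RLE scaling and in DESeq2.

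Marco (ENSMUSG00000026390, GRCm39 chr1:120402267-120432753, minus strand), a class A receptor that binds bacteria and inhaled particles, was a low transcript in every condition. It was at 1.3, 1.40 and 1.14 CPM in control and at 1.11, 1.05 and 0.828 CPM with eGFP supernatant. It was at 0.0506, 0.124 and 0.0652 CPM with Ifnb1eGFP supernatant and at 0.267, 0.360 and 0.101 CPM with rIFNβ. All 6 libraries with IFNβ lay below all 6 without it. The 3 libraries together held 137 counts in control, 120 with eGFP supernatant, 10 with Ifnb1eGFP supernatant and 29 with rIFNβ. Against eGFP supernatant the Ifnb1eGFP value was 12.5-fold lower, with a 95% interval from 6.59 to 26.8 that covers counting error only, and in the model the log2 fold change was −3.59 (SE 0.415, adjusted p = 1.92e-05). With rIFNβ it was 5.16-fold lower than in control, from 3.43 to 7.99, and the log2 fold change was −2.37 (SE 0.351, adjusted p = 0.000135).

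Colec12 (ENSMUSG00000036103, GRCm39 chr18:9707593-9882644, plus strand), a class A receptor with a collectin-type lectin domain that is best known from endothelium, fell with IFNβ and had its highest libraries with eGFP supernatant. It was at 73.6, 82.4 and 74.7 CPM in control and at 93.1, 98.8 and 84.5 CPM with eGFP supernatant. It was at 31.6, 35.0 and 27.9 CPM with Ifnb1eGFP supernatant and at 26.1, 28.4 and 24.2 CPM with rIFNβ. The libraries of control, eGFP supernatant and the IFNβ conditions formed 3 separate ranges, and those of the 2 IFNβ conditions overlapped. The eGFP libraries lay wholly above control, as did 7.96% of all genes tested. The main model did not call this rise over control (log2 fold change 0.26, adjusted p = 0.393). The log2 fold change was −1.55 in both comparisons, with Ifnb1eGFP supernatant (SE 0.0924, adjusted p = 8.5e-08) and with rIFNβ (SE 0.0933, adjusted p = 8.14e-08).

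The class B receptors both fell, by unequal amounts. Cd36 (ENSMUSG00000002944, GRCm39 chr5:17986432-18094067, minus strand) takes up long-chain fatty acids and oxidized lipoproteins. It was at 8920, 9254 and 8554 CPM in control and at 8659, 7970 and 7952 CPM with eGFP supernatant. It was at 4335, 3705 and 3760 CPM with Ifnb1eGFP supernatant and at 3762, 3657 and 3569 CPM with rIFNβ. The highest library with IFNβ lay well below the lowest without it. The log2 fold change was −1.06 with Ifnb1eGFP supernatant (SE 0.0628, adjusted p = 8.19e-08) and −1.28 with rIFNβ (SE 0.0631, adjusted p = 1.63e-08). Cd36 was among the most abundant genes of these cells. It took 0.891% of the normalized library total in control and 0.366% with rIFNβ, where its rank by CPM among all genes went from 11 to 19.

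Scarb1 (ENSMUSG00000037936, GRCm39 chr5:125353547-125418176, minus strand), which exchanges cholesterol esters with high-density lipoprotein, had the smallest called fall. It was at 90.6, 99.0 and 94.6 CPM in control and at 101, 105 and 89.7 CPM with eGFP supernatant. It was at 57.9, 80.2 and 66.8 CPM with Ifnb1eGFP supernatant and at 76.1, 78.7 and 74.2 CPM with rIFNβ. Every library with IFNβ lay below every library without it, and the libraries with Ifnb1eGFP supernatant spread over those with rIFNβ. The log2 fold change was −0.53 with Ifnb1eGFP supernatant (SE 0.0997, adjusted p = 0.000838) and −0.31 with rIFNβ (SE 0.0997, adjusted p = 0.0201). The rIFNβ call was lost without control replicate 2 (adjusted p = 0.0695), rIFNβ replicate 1 (0.0538) or rIFNβ replicate 3 (0.0643). Annotated non-coding genes on the other strand, Gm71869 and Gm71870, overlap exons of Scarb1, and whether the authors counted by strand is not given in the sources used here.

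Olr1 (ENSMUSG00000030162, GRCm39 chr6:129462207-129484128, minus strand) encodes LOX-1, a C-type lectin receptor for oxidized low-density lipoprotein, and its transcript was almost lost with IFNβ. It was at 1.27, 1.02 and 0.686 CPM in control and at 1.36, 1.41 and 0.828 CPM with eGFP supernatant, or 104 and 145 counts over 3 libraries. With Ifnb1eGFP supernatant the libraries held 1, 3 and 3 counts, or 0.0253, 0.0745 and 0.0652 CPM. With rIFNβ they held 0, 1 and 1 counts, or 0, 0.0225 and 0.0253 CPM. No library with IFNβ came near those without it. Against eGFP supernatant the level with Ifnb1eGFP supernatant was 21.6-fold lower, with a counting interval from 10.2 to 54.8, and with rIFNβ it was 56.8-fold lower than in control, from 15.3 to 475. In the model the adjusted p was 6.4e-06 and 4.61e-06, with log2 fold changes of −4.36 and −5.62 that depend on edgeR's default prior count at such low values.

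Stab1 (ENSMUSG00000042286, GRCm39 chr14:30860970-30890598, minus strand) encodes stabilin-1, an endocytic receptor of alternatively activated macrophages and sinusoidal endothelium that takes up acetylated lipoprotein and the matrix protein SPARC. It was at 448, 521 and 435 CPM in control and at 475, 622 and 459.9 CPM with eGFP supernatant. It was at 156, 259 and 209.6 CPM with Ifnb1eGFP supernatant and at 191, 229.7 and 211 CPM with rIFNβ. Replicate 2 was the highest library in each condition, and the highest library with IFNβ still lay below the lowest without it. The log2 fold change was −1.32 with Ifnb1eGFP supernatant (SE 0.172, adjusted p = 5.14e-05) and −1.15 with rIFNβ (SE 0.171, adjusted p = 0.000141). Exons of Stab1 overlap those of Nt5dc2, Gm52148 and Gm62616 on the other strand, where the same doubt about strand applies.

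Cd163 and Cd5l, 2 of the genes with scavenger receptor cysteine-rich domains, went apart. Cd163 (ENSMUSG00000008845, GRCm39 chr6:124281606-124307560, plus strand), the receptor for complexes of haemoglobin and haptoglobin and a common marker of M2-like macrophages, was low in these cells and fell further. It was at 5.15, 6.59 and 5.09 CPM in control and at 5.23, 6.53 and 5.65 CPM with eGFP supernatant. It was at 1.59, 2.11 and 2.28 CPM with Ifnb1eGFP supernatant and at 1.90, 2.09 and 1.87 CPM with rIFNβ. The conditions with IFNβ overlapped each other and lay below both conditions without it. The log2 fold change was −1.54 with Ifnb1eGFP supernatant (SE 0.154, adjusted p = 6.11e-06) and −1.52 with rIFNβ (SE 0.156, adjusted p = 7.2e-06).

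Cd5l (ENSMUSG00000015854, GRCm39 chr3:87265182-87278380, plus strand) encodes a secreted macrophage protein, also called AIM, that inhibits apoptosis and acts on lipid metabolism. It was at 1345, 1535 and 1403 CPM in control and at 1416, 1529 and 1399 CPM with eGFP supernatant. It was at 1485, 1569 and 1614 CPM with Ifnb1eGFP supernatant and at 1625, 1677 and 1664 CPM with rIFNβ. Only the rIFNβ libraries lay clear of their control, and those with Ifnb1eGFP supernatant overlapped the eGFP libraries. The log2 fold change was 0.21 with rIFNβ (SE 0.0565, adjusted p = 0.00725). With Ifnb1eGFP supernatant it was 0.10, with a 95% interval from −0.02 to 0.23 and an adjusted p of 0.143. Averaged over both media it was 0.16 (SE 0.0399, adjusted p = 0.00424). In that average 1 member was higher, against 36.1% of all genes, and 7 were lower, against 30.1%.

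**Figure D2:**
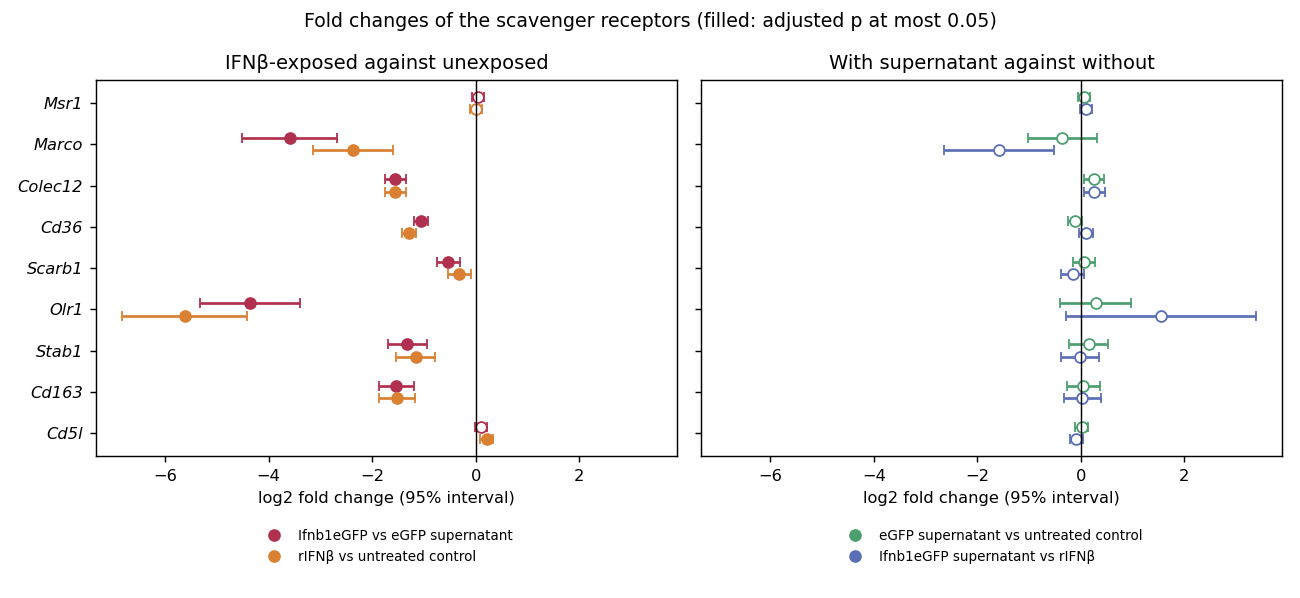
Log2 fold change (horizontal axis) of each gene with its 95% interval, with IFNβ against without it on the left and with melanoma supernatant against without it on the right. Filled points have an adjusted p of at most 0.05, and open points do not. On the left 7 genes lie below 0 in both comparisons and Cd5l above 0 with rIFNβ, and on the right every point is open.

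Tumor cell supernatant alone was compared with plain medium, and Ifnb1eGFP supernatant with rIFNβ. In eGFP supernatant against untreated control edgeR called 0 of the 9 members, where 0.246% of all genes were higher and 0.0532% were lower. DESeq2 also called 0 members there, with 204 of 13275 genes in all. At an unadjusted p under 0.05 there was 1 member, Colec12, with a log2 fold change of 0.26 (SE 0.0895, adjusted p = 0.393), and 8% of all genes. With the replicate number as a block in the model, edgeR called Colec12 (adjusted p = 0.0335). In Ifnb1eGFP supernatant against rIFNβ edgeR called 0 members, where 0.14% of all genes were higher and 0.02% were lower. DESeq2 called 0 members there, with 115 of 12100 genes in all. Unadjusted, Marco (log2 fold change −1.58, SE 0.482, adjusted p = 0.425) and Colec12 (0.26, SE 0.093, adjusted p = 0.529) were under 0.05, as were 8.57% of all genes. The 95% interval of that difference ran from −2.64 to −0.52 for Marco and from 0.06 to 0.47 for Colec12. For Olr1, with 9 counts in the 6 libraries, it ran from −0.30 to 3.39, and a difference was not detectable at this depth. For the other 6 members the intervals stayed within −0.39 and 0.39.

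Averaged over both IFNβ states, supernatant called 0 members by edgeR, where 0.692% of all genes were higher and 0.213% were lower. At an unadjusted p under 0.05 there were 3 members, Msr1, Marco and Colec12, and 11.4% of all genes. Colec12 was higher by 0.26 on the log2 scale (SE 0.0645, adjusted p = 0.111). It was called by DESeq2 (adjusted p = 0.00428, with 347 of 12687 genes in all) and without the filter on low counts (adjusted p = 0.0197). Marco was at −0.97 (SE 0.285, adjusted p = 0.189) and Msr1 at 0.08 (SE 0.0376, adjusted p = 0.439).

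Whether IFNβ acted differently with and without supernatant was tested by the interaction, the log2 fold change with Ifnb1eGFP against eGFP supernatant less that with rIFNβ against control. edgeR called 0 members and 0% of all genes, and DESeq2 called 0 members and 16 genes in all. At an unadjusted p under 0.05 there was 1 member, Cd36, and 4.4% of all genes. The interaction of Cd36 was 0.22, with a 95% interval from 0.03 to 0.42 and an adjusted p of 0.926. That of Marco was −1.22, from −2.47 to 0.03, and that of Olr1 was 1.26, from −0.67 to 3.19. The values of the other 6 members lay between −0.22 and 0.05.

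Summed over the 9 genes, receptor transcripts made up 11275 to 12207 CPM in control, 10712 to 11483 CPM with eGFP supernatant, 6351 to 6879 CPM with Ifnb1eGFP supernatant and 6250.45 to 6396 CPM with rIFNβ. Cd36 held 75.8% to 77.2% of this sum in control and 57.1% to 58.8% with rIFNβ. Levels of different genes were compared as RPKM, the CPM divided by the length of the canonical transcript in kilobases. In control the order of mean levels in RPKM was Cd36 at 2542, Cd5l at 699, Msr1 at 488, Stab1 at 58.5, Scarb1 at 37.3, Colec12 at 9.59, Cd163 at 1.27, Marco at 0.666 and Olr1 at 0.278, with no overlap between neighbours over the 3 libraries. The order was the same with eGFP supernatant. With Ifnb1eGFP supernatant Cd36 was at 1122, Cd5l at 762 and Msr1 at 528 RPKM. With rIFNβ the values of these genes were 1045, 811 and 490.3. Cd36 thus remained the highest member, closer to Cd5l and Msr1. Scarb1 moved above Stab1 in both IFNβ conditions, with 26.9 against 26.03 RPKM in overlapping ranges with Ifnb1eGFP supernatant and 30.1 against 26.3 without overlap with rIFNβ.

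**Figure D3:**
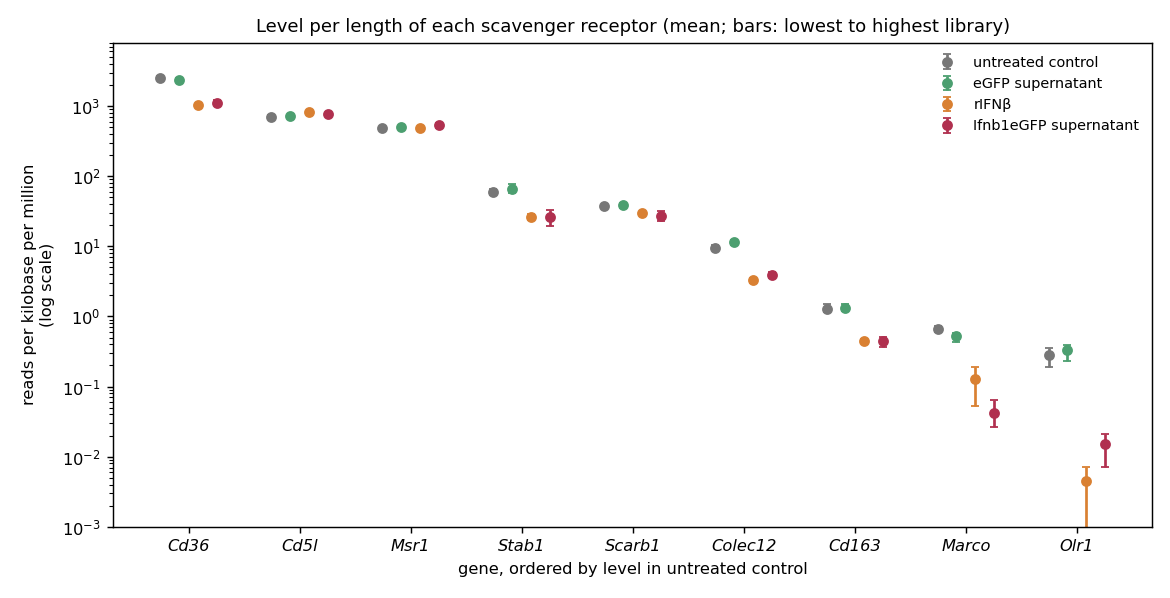
Mean level in RPKM (CPM per kilobase of transcript, vertical axis, log scale) of each gene in each condition, with bars from the lowest to the highest library. The bar of Olr1 with rIFNβ runs off the lower edge because 1 of its libraries was at 0, and Cd36, Cd5l and Msr1 stand above the other genes in every condition.

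Over the 12 libraries the 7 genes that fell moved together, with Pearson correlations of log2 CPM between 0.80 (Cd36 and Scarb1) and 0.98 (Stab1 and Cd163). Cd5l correlated negatively with each of the 7, from −0.81 with Cd36 to −0.44 with Scarb1. These values describe 12 libraries in 4 conditions and mostly carry the difference between conditions. The genes most like each member over the same libraries were Mpc1 (r = 0.998) and Gramd2b (0.998) for Cd36, Fzd1 (0.997) and P4hb (0.995) for Colec12, Mpzl1 (0.996) and Phospho1 (0.994) for Olr1, and Srm (0.985) and Atp5mc1 (0.983) for Marco. For Stab1 they were Tmem120b (0.994) and Glmp (0.991), for Scarb1 Nucb1 (0.994), and for Cd163 Mrps36 (0.991) and Nedd4l (0.991). The nearest genes were less alike for Msr1, with Cd300c2 (0.948) and Tmed7 (0.914), and for Cd5l, with Nat9 (0.952) and Aldh1l1 (0.947).

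A wider list of 24 other scavenger receptors and related proteins moved in both directions. Of the 16 tested, 7 were higher, 6 lower and 3 not called with Ifnb1eGFP supernatant, with a median log2 fold change of 0.32, and 7, 5 and 4 with rIFNβ, with a median of 0.48. Over all genes tested the shares were 30.1% higher and 25% lower with Ifnb1eGFP supernatant and 30.7% and 24.6% with rIFNβ. Lgals3bp, a secreted protein with a cysteine-rich domain like those of Cd163, rose from 419.8 ± 102 CPM with eGFP supernatant to 2484 ± 266 CPM with Ifnb1eGFP supernatant (SD, n = 3, log2 fold change 2.56, SE 0.173, adjusted p = 2.33e-07). Scara3, a class A relative linked to oxidative stress, rose from 0.441 ± 0.188 to 1.73 ± 0.354 CPM (SD, n = 3, adjusted p = 9.83e-05). Cxcl16, a membrane-bound chemokine that also binds oxidized lipoprotein, rose from 24.0 ± 2.42 to 78.9 ± 5.33 CPM (SD, n = 3, log2 fold change 1.71, SE 0.102, adjusted p = 8.62e-08). Tfrc, the transferrin receptor, fell from 994 ± 207 to 330.1 ± 47.2 CPM (SD, n = 3, log2 fold change −1.59, SE 0.187, adjusted p = 2.26e-05). The mannose receptor Mrc1, another M2-like marker, was at 757 ± 51.7 and 825 ± 13.8 CPM (SD, n = 3, log2 fold change 0.12, adjusted p = 0.218). Within this list supernatant, averaged over both IFNβ states, called Cxcl16 alone, with a log2 fold change of 0.38 (SE 0.0717, adjusted p = 0.039). That call was lost when any library other than control replicate 3 or Ifnb1eGFP replicates 1 and 2 was left out, with adjusted p up to 0.113, and it was also lost with library totals as the scaling (adjusted p = 0.0603).

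Of 16 transcription regulators listed as related to scavenger receptor genes, all were tested. With Ifnb1eGFP supernatant 7 were higher, 5 lower and 4 not called, with a median log2 fold change of −0.02, and with rIFNβ the numbers were 7, 4 and 5, with a median of 0.18. Of all genes tested 30.1% were higher and 25% lower in the comparison of supernatants, and 30.7% and 24.6% with rIFNβ. Pparg, the nuclear receptor known to induce Cd36, was higher while Cd36 was lower. It rose from 35.6 ± 3.62 to 71.8 ± 3.75 CPM with Ifnb1eGFP against eGFP supernatant (SD, n = 3, log2 fold change 1.01, SE 0.0765, adjusted p = 6.08e-07) and from 40.4 ± 2.60 to 71.4 ± 3.42 CPM with rIFNβ against control (SD, n = 3). Nr1h3, which encodes the oxysterol receptor LXRα known to induce Cd5l, rose from 25.5 ± 3.75 to 43.7 ± 6.37 CPM with Ifnb1eGFP supernatant (SD, n = 3, log2 fold change 0.78, adjusted p = 0.000222). Maf, a regulator of macrophage identity, rose from 178 ± 13.1 to 249 ± 10.4 CPM (SD, n = 3, adjusted p = 3.7e-05). Bhlhe40, a transcriptional repressor, fell from 126 ± 16.2 to 16.4 ± 0.329 CPM (SD, n = 3, log2 fold change −2.94, SE 0.0937, adjusted p = 8.27e-10). Klf4, a factor linked to IL4 responses, fell from 14.0 ± 1.44 to 6.35 ± 0.446 CPM (SD, n = 3, log2 fold change −1.15, adjusted p = 8.47e-07). For supernatant averaged over both IFNβ states Klf4 had the smallest adjusted p of the 16, at 0.126, and it was called when Ifnb1eGFP replicate 2 was left out (adjusted p = 0.0458). The part of these regulators in the receptor levels, that of Pparg in Cd36 included, was not tested.

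Of 22 genes for partners and ligands of these receptors, 21 were tested, and 6 were higher, 11 lower and 4 not called in each IFNβ comparison, with median log2 fold changes of −0.19 and −0.27, against 30.1% of all genes higher and 25% lower with Ifnb1eGFP supernatant and 30.7% and 24.6% with rIFNβ. Hp, the haptoglobin whose haemoglobin complex Cd163 takes up, fell from 1.65 ± 0.124 to 0.175 ± 0.0235 CPM with Ifnb1eGFP supernatant (SD, n = 3, log2 fold change −3.22, SE 0.229, adjusted p = 3.63e-07). Cd9, a tetraspanin that associates with Cd36, fell from 845 ± 35.2 to 170.3 ± 12.1 CPM (SD, n = 3, log2 fold change −2.31, SE 0.0583, adjusted p = 1.9e-10). Fabp4, a carrier of fatty acids inside the cell, fell from 142 ± 15.6 to 40.6 ± 4.83 CPM (SD, n = 3, log2 fold change −1.81, SE 0.102, adjusted p = 5.75e-08), and Fabp5 from 1394 ± 96.2 to 1132 ± 80.2 CPM (SD, n = 3, adjusted p = 0.0025). Lyn, a Src family kinase that signals below Cd36, rose from 178 ± 9.67 to 681 ± 33.1 CPM (SD, n = 3, log2 fold change 1.94, SE 0.0555, adjusted p = 4.29e-10). Tlr2, a receptor for bacterial lipoproteins that works with Cd36, rose from 8.26 ± 0.5 to 18.6 ± 0.912 CPM (SD, n = 3, log2 fold change 1.17, SE 0.0769, adjusted p = 1.93e-07). In eGFP supernatant against untreated control Tlr2 was the gene called in this list, at 8.26 ± 0.5 against 5.80 ± 0.594 CPM (SD, n = 3, log2 fold change 0.51, SE 0.0814, adjusted p = 0.0251), and in Ifnb1eGFP supernatant against rIFNβ its log2 fold change was 0.07 (adjusted p = 0.75). Supernatant, averaged over both IFNβ states, called Tlr2 alone in this list, with a log2 fold change of 0.29 (SE 0.055, adjusted p = 0.0395). That call was lost when any library other than control replicate 1 or Ifnb1eGFP replicate 2 was left out, with adjusted p up to 0.112.

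**Figure D4:**
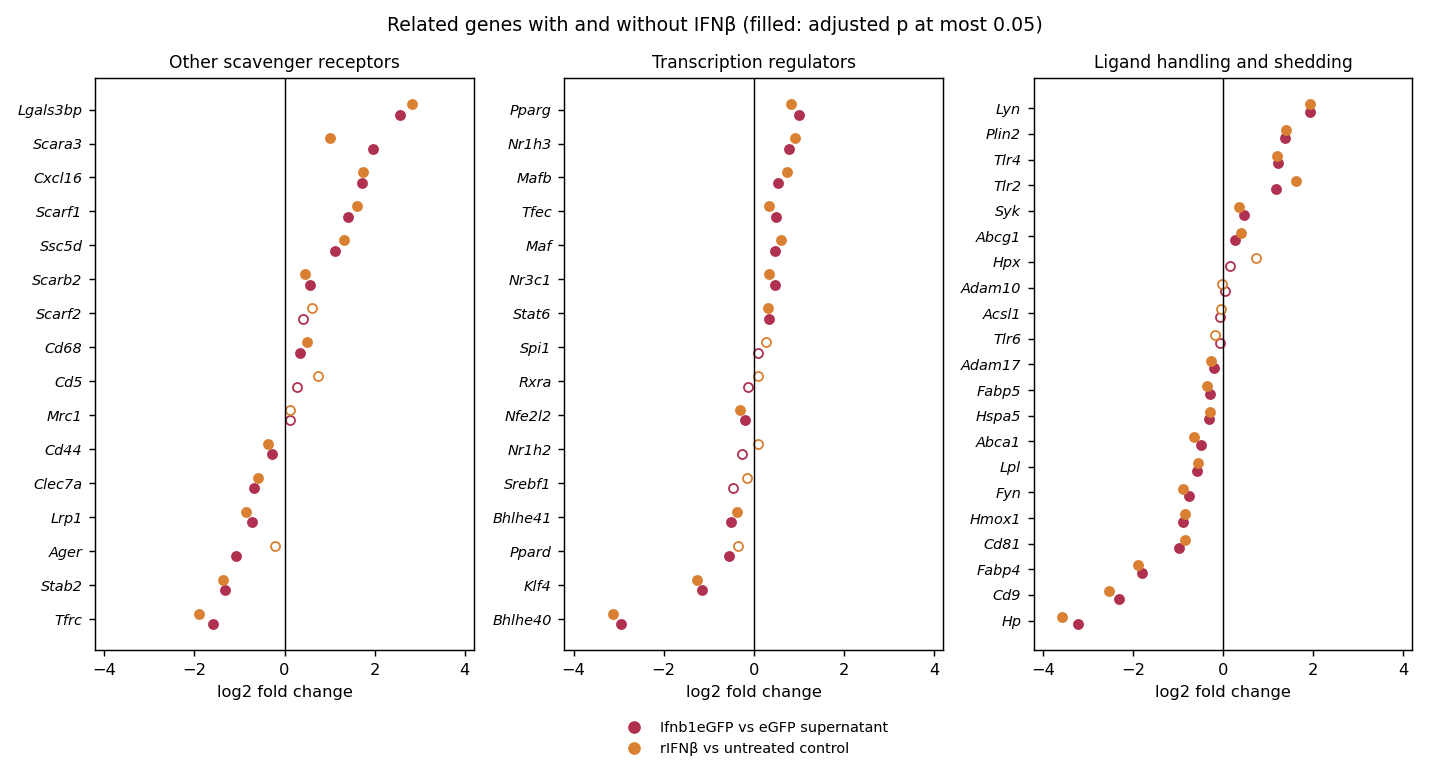
Log2 fold change (horizontal axis) of the tested genes of the 3 related lists with Ifnb1eGFP against eGFP supernatant and with rIFNβ against untreated control. Filled points have an adjusted p of at most 0.05, and in each list genes lie on both sides of 0, from Lgals3bp at 2.56 to Hp at −3.22 with Ifnb1eGFP supernatant.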

How the data were processed

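Total RNA was sequenced from 12 libraries of M2-like BMDM after TruSeq Stranded Total RNA preparation. The authors aligned reads with RSEM 1.3.3 and deposited expected counts per Ensembl gene without normalization, and the submitters' processing notes also name DESeq2. The genome is named as GRCm39 mm10, which joins names of 2 builds, and the annotation release is not given in the sources used here. Gene positions and canonical transcript lengths are those of GRCm39 (GENCODE M39), which held 56017 of the 56748 gene identifiers. Each of the 12 columns was matched to its sample by the sample description.

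Expected counts were rounded, since 12% of values were not whole. Genes passing filterByExpr (15033 of 30347 with at least 1 count) were scaled by TMM factors (0.979 to 1.03), and 1 quasi-likelihood model with condition means was fitted over 12 libraries in R 4.3.3 with edgeR 4.0.16. CPM refers to TMM-scaled totals. Standard errors are the log2 fold change divided by the root of the F statistic. The prior count was 2 for log2 CPM values, and the fitted fold changes kept edgeR's default prior count. The code of the fit was run on simulated counts in which known genes were raised and all genes had the same spread. That run checked the code and not the spread of these libraries. Pairs of libraries within a condition varied beyond sampling noise (chi-square divided by its degrees of freedom, 5.34 to 54.0). The descriptions call the libraries biological replicates from 3 mice per condition. Intervals for ratios of summed counts are exact and cover counting error only.

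The members and lists were chosen with earlier results of these data known. Besides the members, the genes named from each list were the 4 called genes with the largest change with Ifnb1eGFP supernatant and the 2 with the smallest adjusted p for supernatant, and for each member the 2 genes with the highest correlation. A gene that this rule names for Scarb1 is not reported here. Marker and interferon-response genes are named as checks. Alternatives were DESeq2 1.42.0, RLE factors, library totals, no filter, unrounded counts, only the 2 conditions compared, the replicate number as a block, the stricter rule and each library left out in turn.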

Additional observations from a re-analysis of the deposited data

How the results depend on the processing

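The count of members called was 7 with Ifnb1eGFP against eGFP supernatant and 8 with rIFNβ against control, and 8 for IFNβ averaged over both media. It fell to 2 in each under the stricter rule (log2 fold change of 2 or more in size, adjusted p no higher than 0.01). In the same order, 55.1%, 55.3% and 66.2% of all genes were called in either direction by the main rule. By the stricter rule these shares were 5.39%, 5.77% and 5.75%. With a library left out the count stayed at 7 for Ifnb1eGFP against eGFP supernatant, at 8 for the IFNβ average and at 7 to 8 for rIFNβ, where Scarb1 lost its call without 3 of the libraries. For supernatant averaged over both IFNβ states the count rose from 0 to 1, Colec12, with DESeq2, without the filter and with the block. DESeq2 called 347 of 12687 genes there, against 136 of 15033 by edgeR in the main model. The shares of all genes without the filter and with the block are not given here. Fabp5 was called for the same average by DESeq2, with library totals, without the filter and with the block, and Mrc1 by DESeq2 alone, while Cxcl16 lost its call with library totals. The cause of these changes was not tested.

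Replicate numbers were checked as pairs. Libraries of the same number correlated in their deviations from the condition means with r from 0.0582 to 0.252 over 18 pairs (mean 0.148). Libraries of different numbers had r from −0.318 to 0.147 over 36 pairs (mean −0.0742). Deviations cancel out within a condition, so a positive mean over same numbers forces a negative mean over different numbers. The second mean is thus not a separate baseline. All 18 same-number pairs had a positive r. The sources used here do not say whether a number marks the same mouse, and the main model did not use the numbers as pairs. In eGFP supernatant against control the same-number values were 0.0774 to 0.124. In Ifnb1eGFP supernatant against rIFNβ they were 0.167 to 0.246, and there the block changed no call of a member. With the replicate number as a block, 1 member was called with eGFP supernatant against control and 1 for supernatant averaged, Colec12 in both (log2 fold change 0.26, adjusted p = 0.0335 and 0.00454).

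Signs turned only where values were near 0 and not called. Msr1 with rIFNβ was −0.035 in DESeq2, −0.0394 with RLE factors and −0.0262 with only the 2 conditions compared, and averaged over both media −0.00492 in DESeq2 and −0.0098 with RLE factors. Without the filter the interaction of Colec12 was −0.0218 and the supernatant average of Cd36 was 0.00995. With each library left out in turn Msr1 ran from −0.0425 to 0.104 with Ifnb1eGFP supernatant, from −0.0364 to 0.0296 with rIFNβ, from −0.0394 to 0.0557 in the IFNβ average and from −0.00604 to 0.0963 in the interaction. In eGFP supernatant against control Stab1 ran from −0.00129 to 0.233, Cd163 from −0.0432 to 0.182 and Cd5l from −0.0223 to 0.0759. In Ifnb1eGFP supernatant against rIFNβ Stab1 ran from −0.204 to 0.157 and Cd163 from −0.0775 to 0.173. In the interaction Stab1 ran from −0.353 to 0.0118, Cd163 from −0.149 to 0.125 and Colec12 from −0.0808 to 0.0847. In the supernatant average Stab1 ran from −0.0276 to 0.152, Cd163 from −0.0136 to 0.111, Cd36 from −0.0462 to 0.0119 and Scarb1 from −0.116 to 0.000935.

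Depth limits Olr1 and Marco most. With 0 to 3 counts of Olr1 in each library with IFNβ, its fold change is bounded by the counting interval alone, and a difference between the IFNβ sources was not detectable. RLE factors and library totals moved the median of all genes by less than 0.05 on the log2 scale in each comparison of 2 conditions.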
